A study of Homo sapiens with 12 samples.

Results

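GRIN2D, CPEB2, ABCC5, ANKRD52, NACC2, GEM, FAM234B, ASB13, TSC22D3 and ZNF469 are 10 protein-coding genes whose poly(A) RNA was higher than in siControl after siLARP4A and after siLARP4B, in PC3 and in MG63 cells. They were chosen by those measured values, the 4 fold changes against siControl, so the rises are described here with no p-value and nothing is supported by them. The members make up 10 of 15669 genes with enough fragments to be tested, and 10 of 208 tested genes that passed the same threshold upward in all 4 comparisons. Each gene is represented by the transcript model that collected the most fragments over all libraries. All 10 had enough fragments, so none was lost to the expression filter.

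PC3 is a human prostate adenocarcinoma line and MG63 a human osteosarcoma line, both listed as wild type. Each line received, by lipid transfection at 10 nM, either siControl, which has no intended target, or siLARP4A or siLARP4B, named for the RNA each is directed at. RNA with a poly(A) tail was sampled 72 h later. Each of the 6 groups has 2 libraries, stated to be biological replicates, which makes 12 libraries. How many siRNA sequences were used per target is not given in the sources used here, so an effect of 1 siRNA sequence on other transcripts cannot be told apart from an effect of losing its target. Within a line both siRNAs are set against the same 2 siControl libraries, so the 4 comparisons are not independent pairs of experiments.

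LARP4A, whose gene is listed as LARP4, and LARP4B are related RNA-binding proteins that contact the cytoplasmic poly(A)-binding protein. Both are known for roles in mRNA stability and translation, and LARP4A is known to contact poly(A) tails. The 10 genes do not form one pathway: they encode an ion channel subunit, a drug and nucleotide exporter, regulators of mRNA translation and protein turnover, signalling proteins and transcription regulators. Poly(A) RNA sequencing measures how much of a transcript is present, and does not separate synthesis from decay. In bulk RNA, more cells with a transcript and more of it per cell cannot be told apart either.

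Libraries held 16950119 to 24864977 fragments. In PC3 the mean level of LARP4 was 19.2 ± 0.344 FPKM (fragments scaled by transcript length and library size; SD, n = 2) with siControl and 2.41 ± 0.0823 with siLARP4A, a fitted 12.5% of siControl. MG63 cells had 8.34 ± 0.227 and 2.15 ± 0.0526, or 26.1%. LARP4B fell to 17.9% of siControl in PC3 and 31.1% in MG63 with siLARP4B. Summed levels of 5 epithelial markers were 796 to 1042 FPKM in PC3 libraries and 54.6 to 72.2 in MG63. Those of 7 mesenchymal and bone markers were 787 to 876 in PC3 and 4440 to 5147 in MG63. Of the latter, VIM, COL1A1, COL1A2, COL6A1 and ALPL had higher siControl means in MG63. TWIST1 (28.4 FPKM in PC3, 7.41 in MG63) and RUNX2 (0.260 and 0.159) had higher siControl means in PC3. The PC3 sums of epithelial markers were 852 to 868 with siControl, 993 to 1042 with siLARP4A and 796 to 822 with siLARP4B; their part in the members' values was not tested. The summed level of 2 haematopoietic markers never exceeded 0.103 FPKM, with 1 of them at 0 in both libraries of every group.

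Promoter sequence was matched by symbol in RefSeq (GRCh38.p14) for 8 of the 10 genes, in 11 windows; GEM and ZNF469 were not matched. The windows searched are the 250 bases just before each start. Those of 3 genes are printed because they share the letters ACTACANNTCCC, which resemble the known binding element of the transcription factor ZNF143 and were chosen after the sequences had been seen. The 3 windows share no other 12-base stretch with 2 or fewer differing positions. They are written 5′ to 3′ on the gene's strand, and capitals mark the motif on either strand. ABCC5 is on the minus strand at chr3:184017885-184018134, ASB13 on the minus strand at chr10:5666596-5666845 and FAM234B on the plus strand at chr12:13044131-13044380.
ABCC5: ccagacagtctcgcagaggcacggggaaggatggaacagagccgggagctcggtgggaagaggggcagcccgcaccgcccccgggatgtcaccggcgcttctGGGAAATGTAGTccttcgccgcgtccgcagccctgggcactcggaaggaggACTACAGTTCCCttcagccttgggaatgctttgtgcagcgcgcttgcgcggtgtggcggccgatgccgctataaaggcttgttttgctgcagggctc
ASB13: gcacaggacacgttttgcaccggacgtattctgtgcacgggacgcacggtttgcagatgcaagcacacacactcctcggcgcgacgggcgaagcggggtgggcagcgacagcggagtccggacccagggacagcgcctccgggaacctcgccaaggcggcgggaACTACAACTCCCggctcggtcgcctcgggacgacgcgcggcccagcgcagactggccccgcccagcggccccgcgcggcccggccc
FAM234B: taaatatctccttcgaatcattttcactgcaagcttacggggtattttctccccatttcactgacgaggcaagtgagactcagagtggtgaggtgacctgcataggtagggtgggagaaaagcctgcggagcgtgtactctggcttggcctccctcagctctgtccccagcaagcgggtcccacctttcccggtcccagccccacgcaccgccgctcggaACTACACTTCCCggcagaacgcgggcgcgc
In ABCC5 the letters occur on opposite strands, 148 to 137 and 97 to 86 bases before the start. They lie 86 to 75 bases before the start in ASB13 and 30 to 19 in FAM234B. The motif was in 1.67% of 35116 windows, in 2.81% of 17102 windows of tested genes and in 5 of 253 windows (1.98%) of the other genes higher in all 4 comparisons. A match is a description of letters, not a shown binding site.

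The fourth window, chrX:107717063-107717312 on the minus strand, lies upstream of the TSC22D3 model used here. Its capitals mark 2 copies of TGACG, a part of the cAMP response element, and a TATA box.
TSC22D3: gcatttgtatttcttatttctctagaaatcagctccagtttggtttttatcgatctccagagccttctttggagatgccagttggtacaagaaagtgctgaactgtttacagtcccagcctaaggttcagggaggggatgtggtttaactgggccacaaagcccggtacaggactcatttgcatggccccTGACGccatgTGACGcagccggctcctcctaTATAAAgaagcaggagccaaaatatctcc
The TGACG copies lie 60 to 56 and 50 to 46 bases before the start, and TATAAA lies 29 to 24 bases before it. Searched on both strands, TGACG was in windows of 3 of the 8 matched members (CPEB2, FAM234B and TSC22D3) and in 26.4% of windows of tested genes. TATAAA was in ABCC5 and TSC22D3 and in 6.51% of those windows. The GC box GGGCGG was in 7 members and 60.9% of windows, and the E-box CACGTG in 0 members and 7.92% of windows. Members are counted here by gene and the shares by window. Of the 11 member windows, 4 held TGACG, 2 TATAAA, 9 GGGCGG and 0 CACGTG. No match of one motif overlapped a match of another in the members' windows.

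**Figure D1:**
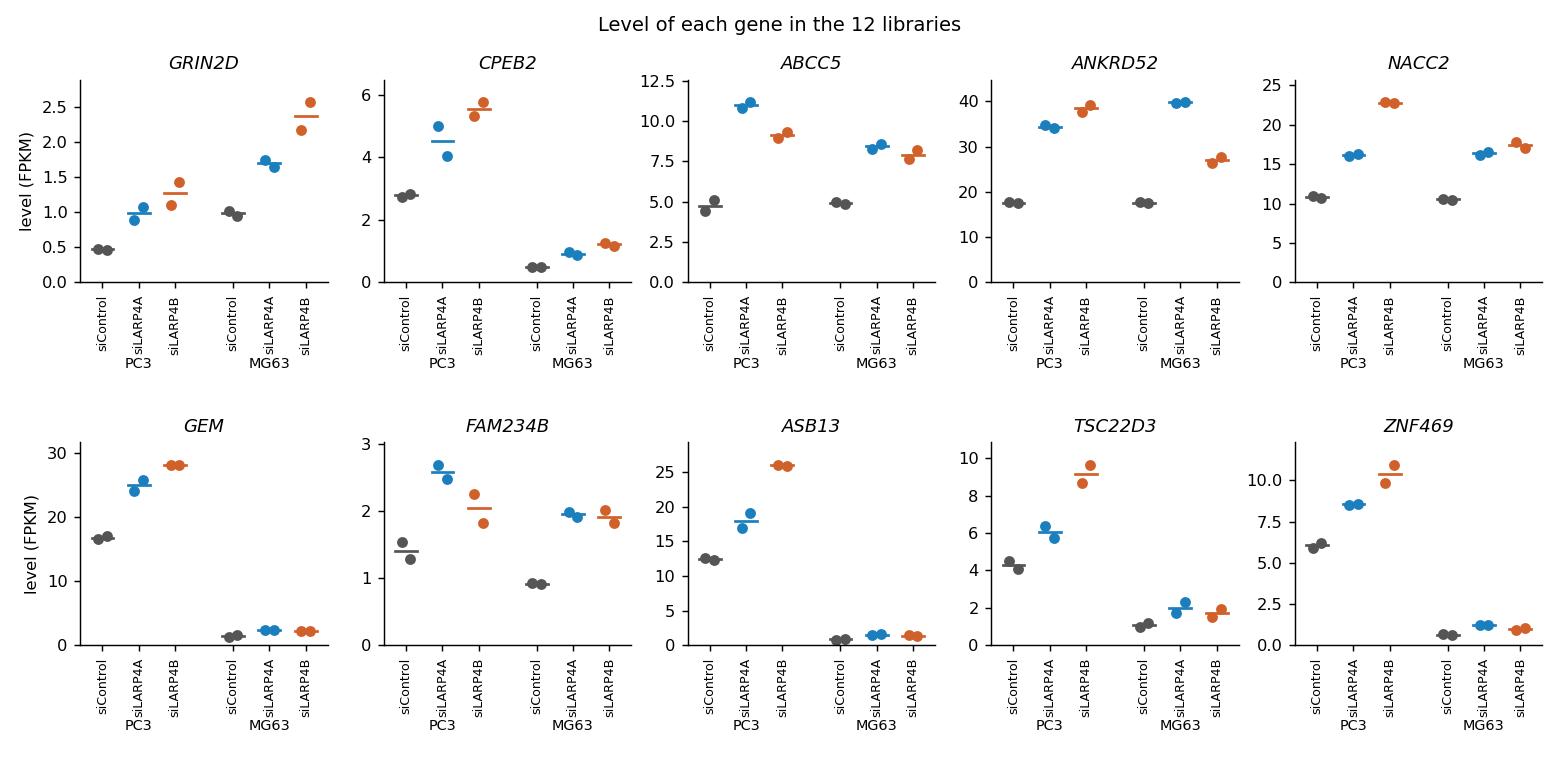
Level (FPKM, linear axis from 0) of each of the 10 genes in the 12 libraries; points are single libraries, lines are means of 2, and colours mark siControl (grey), siLARP4A (blue) and siLARP4B (orange). Both libraries of every siRNA group lie above both siControl libraries of their line in all 10 panels. As a ratio of TMM-scaled CPM the narrowest gap is that of FAM234B in PC3 siLARP4B, which is not the shortest distance in FPKM.

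GRIN2D, ABCC5 and FAM234B encode membrane proteins. GRIN2D (chr19:48393668-48444931, plus strand) encodes the GluN2D subunit of NMDA-type glutamate receptors and was sparsely covered, with 47 to 267 fragments per library. In PC3 its level was 0.475 and 0.467 FPKM with siControl, 0.890 and 1.08 with siLARP4A, and 1.11 and 1.43 with siLARP4B. The MG63 libraries had 1.02 and 0.950, 1.74 and 1.65, and then 2.17 and 2.57. GRIN2D had the lowest level of the set in PC3 siControl libraries, and the siLARP4B libraries were the highest in each line. Fitted log2 fold changes against siControl were 1.04 (SE 0.19) and 1.38 (0.19) in PC3 for siLARP4A and siLARP4B, and 0.80 (0.15) and 1.29 (0.15) in MG63.

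ABCC5 (chr3:183919936-184017884, minus strand) encodes MRP5, an exporter of cyclic nucleotides, nucleotide analogues and other organic anions. Its PC3 levels were 4.42 and 5.08 FPKM with siControl, 10.8 and 11.2 with siLARP4A, and 8.94 and 9.33 with siLARP4B. MG63 levels were 4.96 and 4.89, then 8.27 and 8.57, then 7.63 and 8.21. Both siLARP4A libraries lay above both siLARP4B libraries in each line. Fitted log2 rises were 1.19 (SE 0.07) and 0.90 (0.07) in PC3, and 0.79 (0.07) and 0.71 (0.07) in MG63.

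FAM234B (chr12:13044381-13083449, plus strand) encodes a membrane protein. With siControl, siLARP4A and siLARP4B it stood at 1.54 and 1.28, 2.69 and 2.48, and 2.26 and 1.83 FPKM in PC3. The MG63 values were 0.927 and 0.912, 1.99 and 1.91, and 2.01 and 1.82. Its PC3 siLARP4B replicate 2 lay closest to a control of any siRNA library in the set, at 1.15 times the higher siControl library after TMM scaling (edgeR's correction for library composition). The log2 fold change there was 0.50 (SE 0.14), against 0.87 (0.13) for siLARP4A in PC3 and 1.10 (0.15) and 1.09 (0.15) in MG63.

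CPEB2, ANKRD52 and ASB13 act on mRNA translation or on other proteins. CPEB2 (chr4:15002481-15070151, plus strand) binds cytoplasmic polyadenylation elements in mRNAs and regulates their translation. PC3 levels were 2.74 and 2.83 FPKM with siControl, 4.99 and 4.03 with siLARP4A, and 5.32 and 5.76 with siLARP4B. In MG63, where the gene had 64 to 175 fragments per library, they were 0.500 and 0.489, 0.980 and 0.869, and 1.26 and 1.18. In both lines the order was siControl, siLARP4A, siLARP4B with no overlap between groups. The log2 fold changes were 0.69 (SE 0.10) and 0.95 (0.10) in PC3, and 0.92 (0.17) and 1.33 (0.16) in MG63.

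ANKRD52 (chr12:56237807-56258384, minus strand) encodes an ankyrin-repeat regulatory subunit of protein phosphatase 6, which takes part in dephosphorylating AGO2. It was the most deeply covered member, with 2754 to 7484 fragments per library. PC3 levels were 17.7 and 17.6 FPKM with siControl, 34.7 and 34.0 with siLARP4A, and 37.6 and 39.2 with siLARP4B, whereas MG63 levels were 17.7 and 17.5, 39.7 and 39.8, and 26.3 and 27.8. The siLARP4B libraries were the highest in PC3 and the siLARP4A libraries the highest in MG63. On the log2 scale the rises over siControl were 0.95 (SE 0.05) and 1.08 (0.05) in PC3, and 1.20 (0.05) and 0.65 (0.05) in MG63.

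ASB13 (chr10:5638867-5666595, minus strand) encodes a SOCS-box protein that serves as a substrate receptor of a ubiquitin ligase. Its PC3 levels were 12.6 and 12.3 FPKM with siControl, 16.9 and 19.0 with siLARP4A, and 26.0 and 25.9 with siLARP4B. MG63 levels were far lower, 0.770 and 0.917, 1.47 and 1.60, and 1.42 and 1.27, with as few as 39 fragments in a library. The siLARP4B libraries were the highest in PC3, and in MG63 both siRNA groups lay above siControl with the siLARP4A libraries on top. The log2 fold changes were 0.51 (SE 0.07) and 1.01 (0.07) in PC3, and 0.88 (0.18) and 0.70 (0.18) in MG63.

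GEM and TSC22D3 are signalling proteins known as inducible genes. GEM (chr8:94249257-94262319, minus strand) is a small GTPase of the RGK family, which inhibits voltage-gated calcium channels. Its PC3 levels were 16.5 and 17.1 FPKM with siControl, 24.1 and 25.8 with siLARP4A, and 28.1 in both siLARP4B libraries. MG63 levels were 1.34 and 1.51, 2.31 and 2.32, and 2.24 and 2.19, from as few as 53 fragments. GEM had the most even rises of the set: its log2 fold changes were 0.56 (SE 0.07) and 0.70 (0.07) in PC3 and 0.71 (0.15) and 0.66 (0.15) in MG63, a range of 0.15, while the other members' ranges were 0.45 to 0.64.

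TSC22D3 (chrX:107713222-107717062, minus strand) encodes GILZ, a leucine-zipper protein known as a glucocorticoid-induced mediator of anti-inflammatory signalling. In PC3 it measured 4.50 and 4.06 FPKM with siControl, 6.38 and 5.75 with siLARP4A, and 8.68 and 9.64 with siLARP4B. In MG63 the values were 0.990 and 1.18, 1.70 and 2.32, and 1.52 and 1.93, from as few as 35 fragments. Its MG63 replicates were the most spread of the set with either siRNA, and the siRNA groups overlapped each other there. Against siControl the fitted log2 values were 0.50 (SE 0.13) and 1.05 (0.13) in PC3, and 0.91 (0.22) and 0.69 (0.22) in MG63.

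NACC2 and ZNF469 act in the nucleus. NACC2 (chr9:136006537-136095289, minus strand) is a BTB-domain transcriptional repressor. Its PC3 levels were 10.9 and 10.7 FPKM with siControl, 16.0 and 16.3 with siLARP4A, and 22.9 and 22.7 with siLARP4B, whereas MG63 levels were 10.6 and 10.4, 16.2 and 16.6, and 17.9 and 17.1. The siLARP4B libraries of PC3 stood above all others. The log2 fold changes were 0.57 (SE 0.05) and 1.04 (0.05) in PC3, and 0.66 (0.05) and 0.76 (0.05) in MG63.

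ZNF469 (chr16:88382959-88440751, plus strand) is a very large zinc-finger protein, mutated in brittle cornea syndrome. PC3 levels were 5.88 and 6.23 FPKM with siControl, 8.50 and 8.59 with siLARP4A, and 9.87 and 10.9 with siLARP4B. In MG63 they were 0.682 and 0.597, 1.21 and 1.20, and 0.919 and 1.06. The siLARP4B libraries were the highest in PC3 and the siLARP4A libraries the highest in MG63. As log2 fold changes the rises were 0.49 (SE 0.06) and 0.74 (0.06) in PC3, and 0.93 (0.11) and 0.66 (0.11) in MG63.

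**Figure D2:**
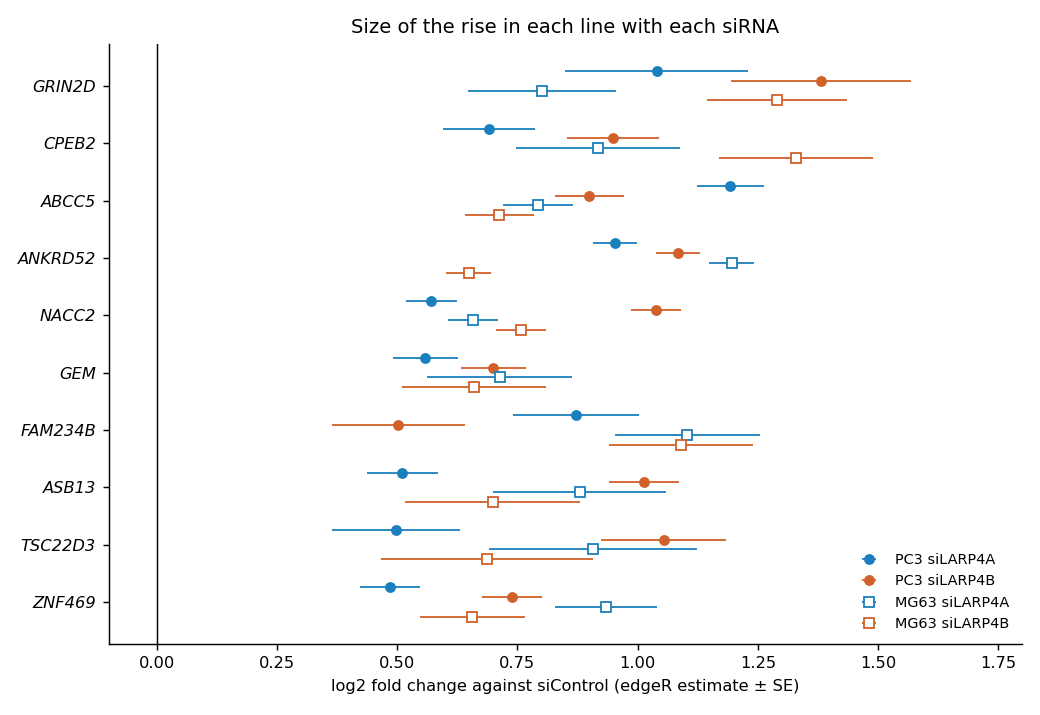
Fitted log2 fold change of each gene against siControl (points, edgeR estimates; bars, SE; filled circles PC3, open squares MG63; blue siLARP4A, orange siLARP4B). All 40 estimates lie above 0, from 0.49 for ZNF469 in PC3 siLARP4A to 1.38 for GRIN2D in PC3 siLARP4B, and the gene with the largest rise differs between comparisons.

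The median log2 fold change of the 10 genes was 0.63 and 0.98 in PC3 for siLARP4A and siLARP4B, and 0.89 and 0.71 in MG63, beside medians of all tested genes within 0.02 of 0. All 10 were called higher in each comparison, which the choice of members fixed. Of all tested genes 17% were called higher with siLARP4A and 21.3% with siLARP4B in PC3, 14.5% and 18.8% in MG63, and 1.33% (208 genes) in all 4. In the siLARP4A comparison in MG63, genes called higher were 54.8% of all calls, and 39.1% when GC content and transcript length were modelled. On TMM-scaled counts all 10 had both siRNA libraries above both siControl libraries in all 4 comparisons. Among tested genes 31.6% and 36.6% did so in the PC3 comparisons, 33.8% and 33.1% in those of MG63, and 4.61% in all 4.

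The rise in any one comparison was between 1.40-fold and 2.61-fold. Ranked by the smallest of the 4 log2 fold changes, GRIN2D (0.80) had rank 2 of the 208 genes, ABCC5 (0.71) rank 3 and CPEB2 (0.69) rank 4, and ZNF469 (0.49) was the lowest member at rank 16. Rank 1 was no member: SEMA7A, a membrane-anchored semaphorin, whose smallest log2 fold change was 0.90. The other non-members above ZNF469 include SESN2 (0.68), DUSP10 (0.56), CRY2 (0.51) and TBC1D13 (0.49). Just below it came SEMA4C (0.48), HMOX1 (0.48), ANKRD42 (0.46), DIPK1A (0.46) and FNIP2 (0.46). Only 5 of the 10 members had a mean of at least 1 FPKM in every group, compared with 200 of the 208 genes; the other 5 were below it in the siControl libraries of at least 1 line.

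Because both siRNAs share their controls within a line, the 2 siControl libraries were also used one at a time. These ratios are of TMM-scaled CPM. In PC3 the ratio of siControl replicate 1 to replicate 2 ran from 0.884 for ABCC5 to 1.22 for FAM234B, with a median over all tested genes of 1.01. In MG63 it ran from 0.842 for TSC22D3 to 1.15 for ZNF469, with a median of 0.997. The gaps between controls were smaller than the rises for every member. The lowest siRNA library divided by the highest siControl library was at least 1.26 (TSC22D3) and 1.15 (FAM234B) in PC3 for siLARP4A and siLARP4B, and at least 1.46 and 1.32 (both TSC22D3) in MG63. At the other end it reached 2.12 for ABCC5, 2.24 for GRIN2D, 2.27 for ANKRD52 and 2.39 for CPEB2.

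Against replicate 1 alone, the mean ABCC5 level with siLARP4A in PC3 was 2.44-fold, and against replicate 2 alone 2.16-fold. For FAM234B with siLARP4B in PC3 the values were 1.28-fold and 1.56-fold, the first being the smallest such ratio of the set. For ASB13 with siLARP4A in MG63 they were 2.02-fold and 1.70-fold, and for TSC22D3 2.05-fold and 1.73-fold. ANKRD52 changed little with the choice, from 2.28-fold to 2.30-fold for siLARP4A in MG63.

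**Figure D3:**
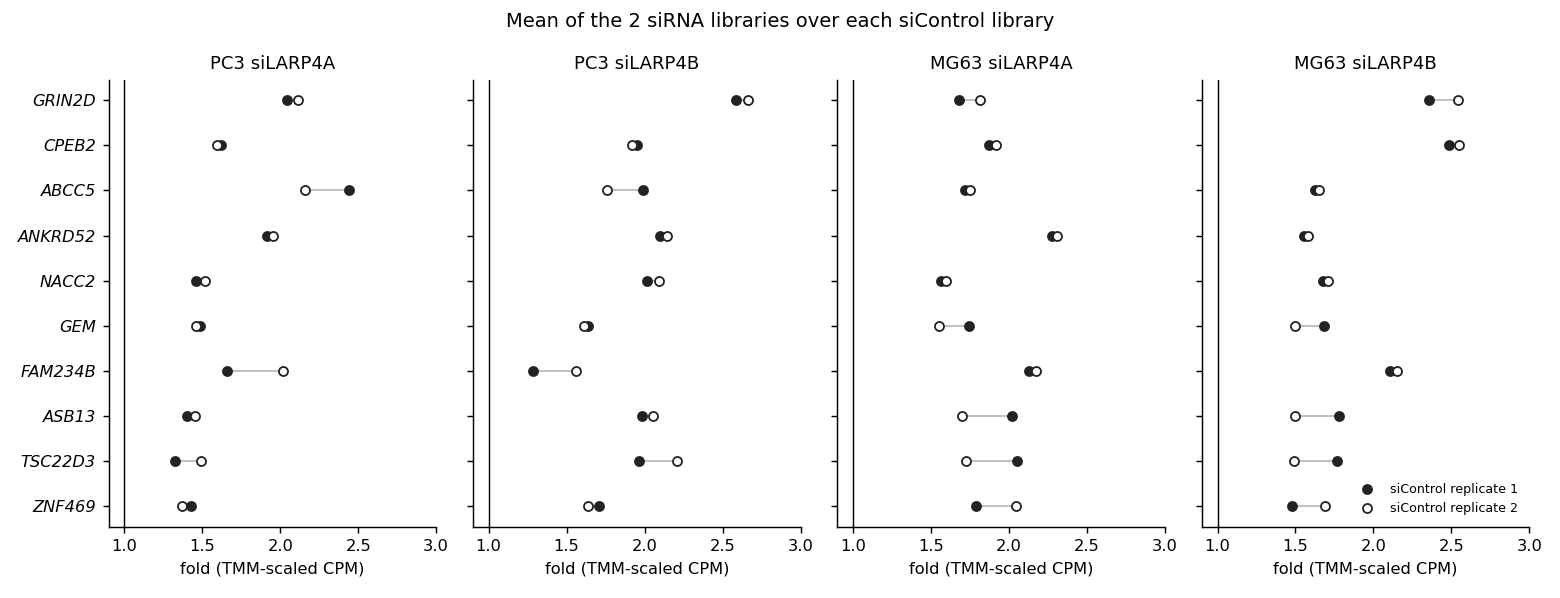
Mean TMM-scaled CPM of the 2 siRNA libraries divided by that of 1 siControl library (filled, replicate 1; open, replicate 2), for each gene and comparison. Every ratio is above 1, from 1.28 for FAM234B in PC3 siLARP4B. The distance between the paired points shows how the ratio depends on which siControl library is used. It does not show an error common to both siControl libraries.

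When each siRNA was given its own siControl library, so that the comparisons of a line shared none, 7 to 9 of the 10 members were still called higher in all 4 over the 4 possible assignments. The corresponding number over all tested genes was 101 to 113, in place of 208. TSC22D3 lost its call in 3 of the 4 assignments, ASB13 in 2 and FAM234B in 2; the other 7 members kept theirs in every assignment. With 1 control library, the estimate of spread comes from the other groups. These calls reuse the siRNA and siControl values by which the members were chosen. That choice favours keeping the calls, so they are a description. Both siRNA libraries lay above the assigned control for all 10 members in all 4 assignments. That was fixed beforehand, because they lay above both controls. Of tested genes 6.45% to 6.89% did so. Of single libraries left out with controls shared, PC3 siControl replicate 2 and MG63 siControl replicate 1 each left 8 of 10 called in all 4. Without the first, TSC22D3 (siLARP4A) and FAM234B (siLARP4B) lost a call in PC3, and without the second ASB13 and TSC22D3 with siLARP4B in MG63. FAM234B was also lost without PC3 siLARP4B replicate 1, TSC22D3 without MG63 siLARP4A replicate 2 or MG63 siLARP4B replicate 2, and ASB13 without MG63 siLARP4B replicate 1.

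The siRNAs were next compared directly, which uses no siControl library and was not part of how the genes were chosen. In PC3, 8 of the 10 members differed between siLARP4A and siLARP4B (edgeR quasi-likelihood test, Benjamini-Hochberg adjusted over all tested genes), in a comparison where 54.2% of all tested genes did (27% higher and 27.2% lower with siLARP4A). ABCC5 (log2 difference 0.29, adjusted p = 0.000562) and FAM234B (0.37, adjusted p = 0.0144) were higher with siLARP4A. Higher with siLARP4B were TSC22D3 (-0.56, adjusted p = 0.000444), ASB13 (-0.50, adjusted p = 1.97e-06), NACC2 (-0.47, adjusted p = 5.65e-08), CPEB2 (-0.26, adjusted p = 0.0178), ZNF469 (-0.25, adjusted p = 0.00127) and ANKRD52 (-0.13, adjusted p = 0.0166). The largest of these gaps was in TSC22D3, at 6.38 and 5.75 FPKM against 8.68 and 9.64. GRIN2D (-0.34, interval -0.67 to -0.01, adjusted p = 0.0728) and GEM (-0.14, interval -0.27 to -0.01, adjusted p = 0.0673) did not pass. The count depended on PC3 siLARP4B replicate 2: without it 4 members passed, and CPEB2, ANKRD52, FAM234B and ZNF469 did not. With DESeq2, and with limma on log2(FPKM + 0.1), 6 members passed, and CPEB2 and FAM234B did not. CPEB2 also missed the threshold without PC3 siLARP4A replicate 2 and FAM234B without PC3 siLARP4A replicate 1, while GRIN2D passed without PC3 siLARP4A replicate 2 or PC3 siLARP4B replicate 1, and GEM without PC3 siLARP4A replicate 2.

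In MG63, 4 of the 10 differed, beside 43.6% of tested genes (22.1% higher and 21.5% lower with siLARP4A). ANKRD52 (0.55, adjusted p = 2.15e-09) and ZNF469 (0.28, adjusted p = 0.025) were higher with siLARP4A, and GRIN2D (-0.49, adjusted p = 0.00502) and CPEB2 (-0.41, adjusted p = 0.0219) with siLARP4B. ANKRD52 and ZNF469 were thus higher with siLARP4B in PC3 and with siLARP4A in MG63, and CPEB2 was higher with siLARP4B in both; whether these differences between the siRNAs differ between lines was not tested. For the other 6 the 95% interval of the difference held 0: ABCC5 -0.06 to 0.22, NACC2 -0.21 to 0.01, GEM -0.23 to 0.34, FAM234B -0.26 to 0.29, ASB13 -0.15 to 0.52 and TSC22D3 -0.18 to 0.63. These intervals do not show equal effects, and those of GEM, FAM234B, ASB13 and TSC22D3 allow differences as large as one that passed (ZNF469). The calls of CPEB2 and ZNF469 were lost without MG63 siLARP4A replicate 2 or MG63 siLARP4B replicate 1, which left 2 members. ZNF469 was also lost without MG63 siLARP4A replicate 1, and GRIN2D without MG63 siLARP4B replicate 2. With limma, ZNF469 was lost at both pseudocounts (1 and 0.1) and CPEB2 at 1. Of all calls in this comparison 50.7% were higher with siLARP4A, and 38.9% with GC content and length modelled; there ZNF469 missed the threshold and NACC2 passed it, lower with siLARP4A.

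**Figure D4:**
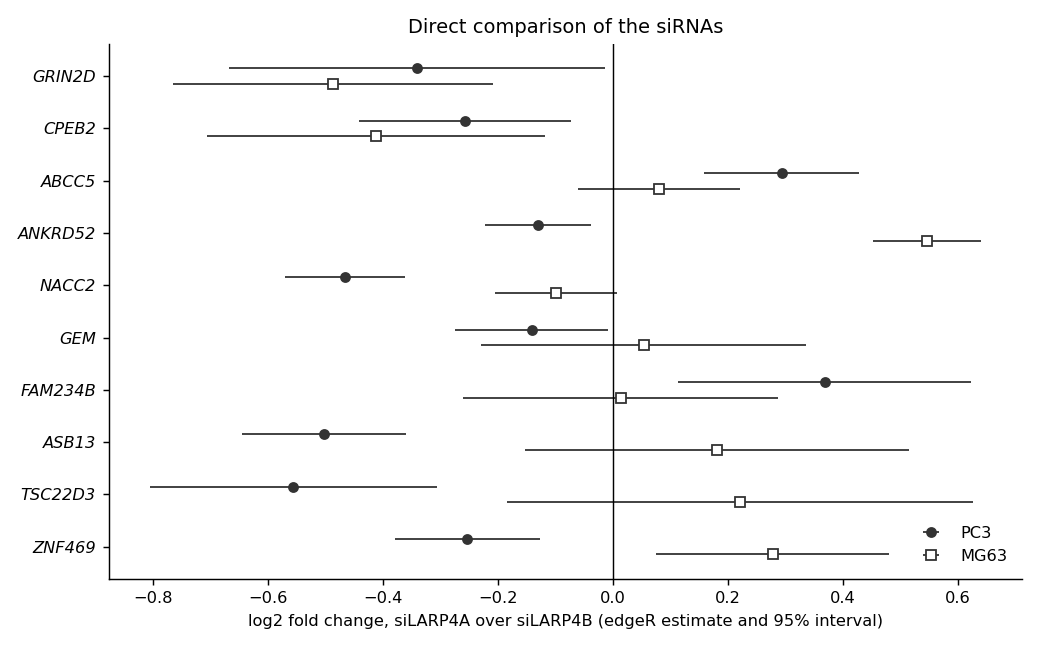
Log2 fold change of siLARP4A over siLARP4B for each gene (points, edgeR estimates; bars, 95% intervals; filled PC3, open MG63). In PC3 ABCC5 and FAM234B lie right of 0 and the other 8 left of it, and ANKRD52 and ZNF469 have intervals on opposite sides of 0 in the 2 lines.

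Whether a rise was larger in one line than in the other was tested with the interaction term; the choice of members asked for a rise in each line, not for equal rises. The siLARP4A rise differed between lines for 3 of 10 members, beside 11.4% of tested genes (4.1% with the larger value in PC3 and 7.29% in MG63). It was larger in PC3 for ABCC5 (difference of log2 fold changes 0.40, SE 0.10, adjusted p = 0.0113) and larger in MG63 for ANKRD52 (-0.24, SE 0.06, adjusted p = 0.0166) and ZNF469 (-0.45, SE 0.12, adjusted p = 0.0209). These 3 calls depended on single libraries and on the processing. In leave-one-out fits 0 of 10 passed without PC3 siControl replicate 1 or without MG63 siLARP4A replicate 1. In the same fits 1 passed (ABCC5) without PC3 siControl replicate 2, MG63 siControl replicate 2 or MG63 siLARP4A replicate 2, and 1 (ZNF469) without MG63 siControl replicate 1. ANKRD52 was lost as well without PC3 siLARP4A replicate 2 or either PC3 siLARP4B library, with the longest model per gene, and with GC content and length modelled. ZNF469 was lost with limma at both pseudocounts (1 and 0.1). At an adjusted threshold none of the other 7 passed; TSC22D3 (-0.41, interval -0.94 to 0.12) and ASB13 (-0.37, interval -0.77 to 0.04) had differences of like size with wider intervals.

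The siLARP4B rise differed for 3 of 10, beside 27.8% of tested genes (10.3% and 17.5%). It was larger in PC3 for ANKRD52 (0.43, SE 0.07, adjusted p = 3.05e-05) and NACC2 (0.28, SE 0.07, adjusted p = 0.00653), and larger in MG63 for FAM234B (-0.59, SE 0.21, adjusted p = 0.0373). ANKRD52 and NACC2 passed in every leave-one-out fit, and NACC2 missed the threshold with GC content and length modelled. FAM234B missed the threshold without PC3 siControl replicate 1, PC3 siLARP4B replicate 2, either MG63 siControl library or MG63 siLARP4B replicate 1. Its call was also lost with DESeq2, with limma at both pseudocounts (1 and 0.1) and with the longest model per gene. ABCC5 passed without PC3 siControl replicate 2, which brought the count to 4. Genes called higher in PC3 were 36.0% of all calls for siLARP4A and 37.0% for siLARP4B. The siLARP4A share was 53.1% with GC content and length modelled, 51.7% with the longest model per gene and 48.8% with a filter on FPKM. The siLARP4B share was 54.4% and 52.8% with limma on log2(FPKM + 1) and log2(FPKM + 0.1), and 52.7% with the filter.

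With siControl alone, all 10 members differed in level between PC3 and MG63, as did 81.8% of tested genes (42.1% higher in PC3 and 39.7% higher in MG63). Higher in PC3 were ASB13 (log2 difference 3.72, SE 0.12), GEM (3.39, SE 0.11), ZNF469 (3.08, SE 0.09), CPEB2 (2.33, SE 0.14), TSC22D3 (1.81, SE 0.19) and FAM234B (0.45, SE 0.16), all with an adjusted p of 0.0127 or less. GRIN2D was higher in MG63 (-1.22, SE 0.19, adjusted p = 4.98e-06). By the edgeR test, differences were small for ABCC5 (-0.21, adjusted p = 0.0153), ANKRD52 (-0.16, adjusted p = 0.00398) and NACC2 (-0.13, adjusted p = 0.0374). Those of ANKRD52 and NACC2 changed sign on the FPKM scale (limma) and did not pass there. They also changed sign with GC content and length modelled, where both passed as higher in PC3 (0.098 and 0.21). The rises were therefore measured from starting levels that lay up to 13.2-fold apart between the lines (ASB13). FAM234B missed the threshold without PC3 siControl replicate 1 or either MG63 siControl library, ABCC5 without PC3 siControl replicate 1 or MG63 siControl replicate 1, and NACC2 without PC3 siControl replicate 2 or MG63 siControl replicate 1. FAM234B was also lost with DESeq2, ABCC5, ANKRD52 and NACC2 with limma at both pseudocounts, ABCC5 with GC content and length modelled, and NACC2 with no filter on low counts and with the deduplicated table of PC3 siControl replicate 2.

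The deposited tables hold several transcript models for ABCC5, CPEB2, ASB13, TSC22D3 and GEM, and a fragment in a shared exon is listed under each. For CPEB2, ASB13, TSC22D3 and GEM all models were higher by near-equal folds; for TSC22D3, 5 models gave 1.40-fold to 1.42-fold with siLARP4A in PC3 and 1.87-fold to 2.00-fold in MG63. ABCC5 differed. Its long model of 5903 bases had 469 and 571 fragments in the PC3 siControl libraries, 1581 and 1249 with siLARP4A, and 1011 and 934 with siLARP4B. A short model of 1918 bases, which covers the 5′ part of the gene from chr3:183983753-184017884, had 208 and 259, 380 and 290, and 388 and 403. In MG63 the long model had 530 and 551, 853 and 939, and 883 and 914 fragments, and the short one 304 and 331, 265 and 266, and 316 and 343.

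Per 100 fragments of the long ABCC5 model, the short model had 44.3 and 45.4 in PC3 siControl, 24.0 and 23.2 with siLARP4A, and 38.4 and 43.1 with siLARP4B. In MG63 the ratio was 57.4 and 60.1, 31.1 and 28.3, and 35.8 and 37.5. It was lower in both siRNA libraries than in both siControl libraries in each comparison, and lowest with siLARP4A in both lines. Over 4 models, the ABCC5 fold over siControl ran from 1.18 to 2.29 with siLARP4A and from 1.69 to 1.87 with siLARP4B in PC3. In MG63 it ran from 0.866 to 1.73 with siLARP4A and from 1.02 to 1.64 with siLARP4B. The lower value in each range belonged to a short model. In MG63 the short model of 1918 bases had fewer fragments in both siLARP4A libraries than in either siControl library. Since shared fragments enter both models, the ratio is a description and was not tested.

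**Figure D5:**
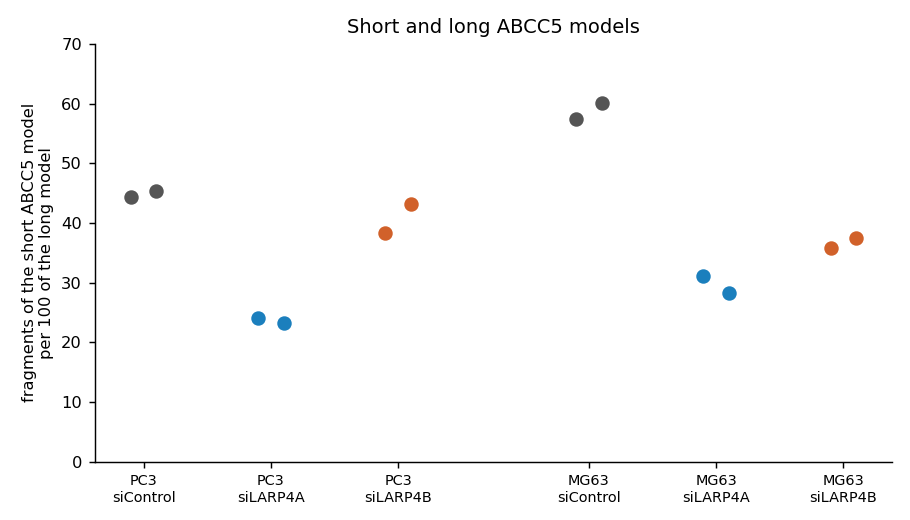
Fragments of the short ABCC5 model (1918 bases) per 100 fragments of the long model (5903 bases) in each of the 12 libraries, linear axis from 0; colours mark siControl (grey), siLARP4A (blue) and siLARP4B (orange). The siLARP4A libraries sit lowest in each line, at 24.0 and 23.2 in PC3 and at 31.1 and 28.3 in MG63.

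Strand handling during counting is not given in the sources used here, and 3 members overlap a gene on the opposite strand. CPEB2 overlaps C1QTNF7-AS1 (0 to 2 fragments per library) and ABCC5 overlaps ABCC5-AS1 (0 to 3). ANKRD52 shares 39 bases with SLC39A5, which had 13 to 40 fragments. Beside 64, 469 and 2754 fragments in the lowest library of each member, these are small.

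By their medians, the members' transcripts were longer and higher in GC content than those of all tested genes. GEM, ASB13 and TSC22D3 were shorter than the median of tested genes, and CPEB2, GEM and FAM234B had a lower GC content. The median model length was 5707 bases for the 10, 4182 for the other 198 genes higher in all 4 comparisons and 3221 for all tested genes. ZNF469, at 13768 bases, was longer than 98.9% of tested genes, and TSC22D3, at 1953, longer than 24.4%. Median GC content was 53.5%, 52.1% and 48.8% in the same order. It ran from 44.1% in CPEB2 to 69.0% in GRIN2D, which exceeded 99.1% of tested genes. All 40 rises kept their direction with GC content and length modelled, and all passed the threshold there. The members were chosen by these rises, so this is a description. A part of GC content or length in the rises was not tested.

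After centring within each line, each member followed the mean of the other 9 with a Pearson r of 0.85 (FAM234B) to 0.99 (GEM) over 12 libraries; the members were chosen to rise together, so this is a description. The 5 tested non-members most like the members' mean pattern were IQCE (r = 0.984), SLC30A1 (0.972), PIGS (0.966), TAOK3 (0.964) and ADIPOR1 (0.964). Likeness in shape did not mean likeness in size. IQCE was 0.26 and 0.41 (log2) above siControl in PC3 and 0.48 and 0.44 in MG63, below every member in each comparison, and ADIPOR1, a receptor for adiponectin, was 0.21, 0.22, 0.17 and 0.20 above.

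Relatives of the members came from lists of 72 genes named for family or pathway. Calls among them were mostly higher with siLARP4A and went in both directions with siLARP4B. Of 54 tested, 20 were called higher and 5 lower with siLARP4A in PC3, 11 and 12 with siLARP4B in PC3, 14 and 1 with siLARP4A in MG63, and 10 and 12 with siLARP4B in MG63 (median log2 fold changes 0.13, 0.03, 0.10 and 0.00). Of all tested genes 17%, 21.3%, 14.5% and 18.8% were called higher in these comparisons, and 19%, 23.4%, 11.9% and 16.3% lower. The relatives as a set were not tested. A single relative, TSC22D2, was higher in all 4 (0.70, 0.31, 0.83 and 0.63). The other TSC22 genes tested were each called in 1 comparison, TSC22D4 higher in PC3 with siLARP4A (0.26) and TSC22D1 lower in MG63 with siLARP4B (-0.15).

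The glucocorticoid receptor and its known targets, the list for TSC22D3, gave different counts with the 2 siRNAs. Of 9 tested, 6 were higher and 0 lower with siLARP4A in PC3, 3 and 0 in MG63, but 0 and 4 with siLARP4B in PC3, and 1 and 5 in MG63. The receptor gene NR3C1 was lower with siLARP4B (-0.74 in PC3 and -0.31 in MG63) and did not pass with siLARP4A (0.10 in each). ERRFI1 was lower with siLARP4B in both lines (-0.41 and -0.74) and higher with siLARP4A in MG63 (0.30). The single gene called higher with siLARP4B was CEBPD in MG63 (0.42), a transcription factor gene that was also higher with siLARP4A in PC3 (0.85).

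Of the protein phosphatase 6 subunits, the list for ANKRD52, 3 of 6 were called higher with siLARP4A in PC3 and 0 in MG63, and with siLARP4B 1 was higher and 2 lower in PC3 and 2 and 1 in MG63. PPP6R3, a regulatory subunit, was 0.27 with siLARP4A and -0.36 with siLARP4B in PC3. AGO2, the Argonaute on which this phosphatase acts, was higher with siLARP4A (0.58 in PC3, 0.70 in MG63), lower with siLARP4B in PC3 (-0.75) and did not pass with siLARP4B in MG63 (-0.03). AGO4 was higher with siLARP4A (0.67 and 0.95) and did not pass with siLARP4B (-0.06 and -0.12).

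Within CPEB2's family, CPEB4 rose with siLARP4A (0.35 in PC3, 1.02 in MG63), fell with siLARP4B in PC3 (-0.50) and had -0.07 with siLARP4B in MG63. CPEB3 was higher in both PC3 comparisons (0.62 and 0.64). Of 6 ABCC transporters tested, ABCC3 passed in all 4 comparisons in mixed directions (-0.46 and 0.81 in PC3, 1.30 and -0.79 in MG63), and ABCC10 was lower in both MG63 comparisons (-0.46 with each siRNA). Of 4 NMDA receptor subunits tested, GRIN3B passed once, with siLARP4B in PC3 (0.61), and GRIN2D had no relative above 2.17 FPKM in any group mean. Of the 2 RGK GTPases tested, RRAD was higher with siLARP4B in PC3 (0.91) and siLARP4A in MG63 (0.56), and lower with siLARP4B in MG63 (-0.77). REM2 passed once, higher with siLARP4B in PC3 (1.39), at means of 0.175 FPKM with siControl and 0.470 with siLARP4B.

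Of 8 ASB genes tested, ASB6 was higher in 3 comparisons (0.24 and 0.16 in PC3, 0.32 with siLARP4B in MG63) and ASB9 lower in both PC3 comparisons (-0.95 and -0.30). Among the elongin and cullin partners of ASB proteins CUL5 was lower with siLARP4B in both lines (-0.41 and -0.30). NACC1, the paralogue of NACC2, was higher with siLARP4A in PC3 (0.25) and with both siRNAs in MG63 (0.18 and 0.52). FAM234A was -0.17 and 0.44 in PC3. Of 3 corneal matrix genes related to ZNF469, COL5A1 was higher with siLARP4A (0.57 in PC3, 0.76 in MG63) and lower with siLARP4B in MG63 (-0.37).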

How the data were processed

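Poly(A) RNA of 12 PC3 and MG63 libraries was sequenced, with 2 libraries in each of 6 groups. The authors deposited 1 table per library with whole-number fragment counts per transcript model, an FPM signal scaled to library size, and FPKM, per the file headers. Strand handling is not given in the sources used here. FastQC, HISAT2, featureCounts, edgeR and hg38 are named, without role, in the submitters' processing notes. Depth was 16950119 to 24864977 fragments per library.

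From 86394 models, those on chromosomes 1 to 22 and X were kept, and 1748 symbols with models at more than 1 locus or on another contig were left out, which left 26415 symbols. Each gene took its model with the most fragments over 12 libraries. Levels are the deposited FPKM. Fragment counts were tested with edgeR 4.0.16 (quasi-likelihood F-test, TMM scaling, default expression filter, all 12 libraries in 1 fit) in R 4.3.3, on 15669 genes, two-sided, with Benjamini-Hochberg adjustment and a threshold of 0.05. SE is the log2 fold change divided by the square root of F. The biological coefficient of variation was 4.21% and the prior degrees of freedom 15.5. That coefficient is 1 value over all groups, whose replicates differed unequally. Chi-square per degree of freedom between replicates was 6.47 in PC3 siLARP4A and 5.21 in MG63 siLARP4B. In the other groups it was 1.65 to 2.63. With 2 libraries per group, each gene's spread is borrowed largely from other genes. The test was checked on counts simulated from its own fitted spread, with changes in PC3 siLARP4A only and no difference between lines. That check does not show how the test behaves with the many differences in these data.

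The members and the lists were chosen with earlier results of these data known. Named besides the members are LARP4 and LARP4B; from each relatives list at most 3 genes, those called most often in 1 direction, ties by mean absolute log2 fold change; the 5 non-members at least 1 FPKM in every group with the largest smallest rise and the 5 just below the lowest member; and the 5 with the highest r. Alternatives were limma 3.58.1 on log2(FPKM + pseudocount), with pseudocounts 1 and 0.1, DESeq2 1.42.0, its size factors, other filters and models, a GC and length offset (GENCODE 29, 96.7% of genes), a deposited deduplicated table for 1 library, and leaving out each library.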

Additional observations from a re-analysis of the deposited data

Results flagged for a closer look

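For 5 members the size of a rise differed between PC3 and MG63 by the interaction test (edgeR, adjusted over all tested genes). Of all tested genes 11.4% differed for siLARP4A and 27.8% for siLARP4B. As given above, the siLARP4A calls and the siLARP4B call of FAM234B depended on single libraries. The siLARP4A calls of ANKRD52 and ZNF469 and the siLARP4B calls of NACC2 and FAM234B depended on the processing. For siLARP4A the log2 rise in PC3 minus that in MG63 was 0.40 for ABCC5, -0.24 for ANKRD52 and -0.45 for ZNF469. For siLARP4B it was 0.43 for ANKRD52, 0.28 for NACC2 and -0.59 for FAM234B. ANKRD52 appears with both siRNAs, with the larger rise in MG63 for siLARP4A and in PC3 for siLARP4B. The members' groups hold 2 libraries each, too few to look for a library that stands apart within a group.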

How the results depend on the processing

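The 40 rises against siControl kept their direction under every alternative run. Of the members' values in these comparisons 770 stayed within the replicate spread and 142 moved beyond it. Limma on log2(FPKM + 1), which understates rises of low genes, gave smaller values, but it holds only 40 of these values. Values also varied when single libraries were left out. TSC22D3 with siLARP4A in MG63 ran from 0.65 to 1.10 in those fits, beside 0.91 in the edgeR fit. All members tested were called higher in all 4 comparisons with limma, DESeq2, its size factors, the longest model and the GC and length offset. The choice of members by these comparisons favours keeping the calls, so they are a description. A filter at a mean of 5 FPKM in the highest group left out GRIN2D and FAM234B. Counts of members with another siRNA or line comparison changed more. With limma on log2(FPKM + 1), members differing between siRNAs in MG63 were 2 (4 in the edgeR fit) and members whose siLARP4B rise differed between lines were 6 (3 in the edgeR fit). Leaving out each library gave 8 to 10 members higher in all 4 comparisons, 4 to 9 members differing between siRNAs in PC3 and 2 to 4 in MG63, and 0 to 3 and 2 to 4 members whose siLARP4A and siLARP4B rises differed between lines. Among differences that had passed the threshold, the values with a reversed sign were 0.0082 for the ZNF469 siLARP4A rise in PC3 minus MG63 with limma on log2(FPKM + 1), and for the siControl difference between lines 0.0021, 0.0022 and 0.098 for ANKRD52 and 0.031, 0.034 and 0.21 for NACC2 with limma at pseudocounts 1 and 0.1 and with the GC and length offset; the cause was not tested. Differences that had not passed changed sign too, such as that of CPEB2 between lines with limma on log2(FPKM + 1), from -0.23 to 0.17 for siLARP4A and from -0.38 to 0.22 for siLARP4B. Over all tested genes, those higher in all 4 comparisons numbered 208 in the edgeR fit and 101 to 258 over the alternatives. They were 101 to 113 with separate siControl libraries, 116 without MG63 siControl replicate 2 and 258 with the mean FPKM filter. In MG63 with siLARP4A, 2266 genes were called higher and 1871 lower, but 1385 and 1316 without siControl replicate 1, 1415 and 1280 without siControl replicate 2, and 1454 and 1249 without siLARP4A replicate 1. For siControl in PC3 against MG63, 6600 and 6219 became 4306 and 4217 with the FPKM filter, which tests fewer genes. In that comparison limma at pseudocount 0.1 moved the median log2 difference of all genes from 0.02 to 0.17.

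Replicate numbers are shared by the groups of a line, but same-numbered libraries did not deviate together (r from -0.03 to 0.06 over 12428 genes), so the numbers were not taken as pairs. With a replicate block within the line, 10 members were higher in all 4 comparisons, 8 differed between siRNAs in PC3 and 4 in MG63, and NACC2 lost its siControl difference between lines. Low depth limits the MG63 values of ASB13, TSC22D3, GEM and CPEB2, with as few as 39, 35, 53 and 64 fragments per library.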
